A study of Mus musculus with 20 samples.

Results

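Cell cycle and proliferation genes were followed as 38 members, 16 of them genes of DNA replication and 22 genes of mitosis, among 24125 named genes on the array. The members were chosen by name, from known roles in the cell cycle, and each was read from its brightest probe. All 38 were on the array. RNA came from 20 mouse samples on a C57BL/6 background, housed free of specific pathogens, each hybridized to its own single-colour microarray. Salivary gland (whole tissue) was taken from 4 females labelled Irgm1-/-, each 9 weeks old, and from 4 wild type females 6 to 7 weeks old. Small intestine (whole duodenum) and isolated colonic macrophages were taken from 3 mice labelled Irgm1-/- (2 males and 1 female, 6 to 8 weeks old) and 3 wild type females of 6 to 8 weeks. Animal numbers in the file names put both intestinal sample types in the same 6 mice. Irgm1 encodes an interferon-inducible GTPase with roles in autophagy and in defence against intracellular microbes, and the series asked which genes differ between the genotypes across tissues.

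A dividing cell first copies its DNA and then separates the copies. The MCM complex (Mcm2 to Mcm7) is the helicase that opens the DNA, loaded by Cdc6 and Cdt1, restrained by geminin (Gmnn) and activated with Cdc45. Cyclin E (Ccne1, Ccne2) starts replication, Pcna clamps the polymerase to DNA, and Rrm1, Rrm2 and Tyms supply deoxynucleotides. Mitosis is driven by Cdk1 with cyclins A2, B1 and B2, carried out with kinesins and kinases such as Kif11, Plk1 and the Aurora kinases, policed at the spindle by Bub1 and Bub1b, and ended by Cdc20 and Ube2c of the anaphase-promoting pathway. In the intestine such genes mark the dividing cells of the crypts, while adult salivary gland and resident macrophages divide little.

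Levels are log2 signals minus the 75th percentile of the same array, so 0 is the percentile and each step of 1 is a doubling. For comparisons between tissues all 20 arrays were scaled together, and for comparisons by genotype each tissue was scaled on its own. The same array therefore has a different level in each kind of comparison. A probe counted as measured where the scanner software marked it well above background. Over all probes, the 75th percentile was 130.2 to 1022 intensity units on salivary gland arrays. It was 2322 to 4689.5 on those of small intestine, and 922 to 2137 on those of macrophages. In salivary gland and in comparisons between tissues another percentile was subtracted, that of probes above background on every array of the fit. Of the 38 members, 9 to 32 per array were well above background in salivary gland (median 14), 35 to 36 in small intestine, and 26 to 33 in macrophages (median 30.5). Ccne2 reached that mark on 0 of the 20 arrays. Aurkb, the kinase of the chromosomal passenger complex, was so on 1 macrophage array alone. Marker genes were read beside the tissue labels. All 8 of 8 salivary acinar markers were detected on every salivary gland array, and 8 of 8 enterocyte markers on every small intestine array. On every macrophage array 8 of 12 macrophage markers were detected, and 6 of 6 epithelial markers too. Of the 12 macrophage markers, 11 were also detected on every small intestine array. Their sums were 23.5 to 41.2 times the percentile there, against 10.8 to 31.3 on macrophage arrays. Detection therefore does not set the macrophage arrays apart from whole intestine. Irgm1 signal was itself higher on the arrays labelled Irgm1-/-, by 2.64 (salivary gland), 1.16 (small intestine) and 0.88 (macrophages) on the log2 scale. No source used here says which exons the allele lacks, so this signal checks nothing. The groups are therefore named as labelled.

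Promoters of both classes of member carry known sequence elements. Many mitosis genes are bound through a cell cycle homology region (CHR) and CCAAT boxes, and many replication genes through E2F sites. Windows of 300 bases around the annotated start (250 before, 50 after) came from RefSeq, build GRCm38.p6, and 30 of the 38 members had one. Aurkb, Ccna2, Ccne2, Foxm1, Gmnn, Kif20a, Mcm4 and Tpx2 did not. The CHR was searched in its usual form TTTGAA and in its variant form TTCGAA, and the other box by its name, CCAAT. For the E2F core the strong form is TTCCCGC, a second searched form with other middle bases is TTCGCGC, a further form that was searched is TTGCCGC, and the last form that was searched is TTGGCGC. Both strands were read, and matches of different strings could overlap. A CHR was found in 13 of 17 mitosis genes (76.5%), 3 of 13 replication genes (23.1%) and 21.7% of all 27025 genes, a gene with several windows counting where any of them matched. A CCAAT box was found in 15 of 17 (88.2%), 9 of 13 (69.2%) and 41.1%. An E2F core was found in 3 of 17 (17.6%), 8 of 13 (61.5%) and 10.9%. CHR and CCAAT box stood together in 76.5% of the mitosis genes and 23.1% of the replication genes, against 9.65% of all. These matches describe letters in a window and no binding was measured. The 250 bases before the start are printed 5′ to 3′ on the gene's own strand for 5 members, 3 of mitosis and 2 of replication, as examples of the elements in each class. Capitals mark the searched elements.
Cdk1 chr10:69352913-69353162 (minus strand): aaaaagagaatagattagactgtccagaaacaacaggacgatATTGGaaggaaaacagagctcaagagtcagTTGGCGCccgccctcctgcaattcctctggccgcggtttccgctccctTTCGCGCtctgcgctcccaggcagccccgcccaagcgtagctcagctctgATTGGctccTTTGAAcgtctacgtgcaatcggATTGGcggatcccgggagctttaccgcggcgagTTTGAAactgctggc
Cdc20 chr4:118437344-118437593 (minus strand): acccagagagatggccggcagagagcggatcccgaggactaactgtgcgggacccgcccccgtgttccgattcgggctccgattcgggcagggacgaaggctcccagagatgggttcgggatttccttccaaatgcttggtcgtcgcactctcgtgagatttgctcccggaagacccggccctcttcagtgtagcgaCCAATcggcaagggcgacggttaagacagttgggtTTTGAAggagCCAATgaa
Top2a chr11:99024190-99024439 (minus strand): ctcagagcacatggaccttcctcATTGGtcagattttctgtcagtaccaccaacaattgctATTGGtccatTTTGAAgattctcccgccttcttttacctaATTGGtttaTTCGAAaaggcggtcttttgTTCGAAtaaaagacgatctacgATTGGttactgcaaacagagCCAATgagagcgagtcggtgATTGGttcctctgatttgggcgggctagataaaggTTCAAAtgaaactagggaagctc
Mcm5 chr8:75109259-75109508 (plus strand): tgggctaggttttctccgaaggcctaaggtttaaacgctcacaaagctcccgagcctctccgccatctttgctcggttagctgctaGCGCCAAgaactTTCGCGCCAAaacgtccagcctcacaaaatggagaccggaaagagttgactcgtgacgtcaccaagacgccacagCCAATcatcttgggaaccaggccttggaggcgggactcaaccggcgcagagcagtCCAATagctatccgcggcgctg
Mcm6 chr1:128359706-128359955 (minus strand): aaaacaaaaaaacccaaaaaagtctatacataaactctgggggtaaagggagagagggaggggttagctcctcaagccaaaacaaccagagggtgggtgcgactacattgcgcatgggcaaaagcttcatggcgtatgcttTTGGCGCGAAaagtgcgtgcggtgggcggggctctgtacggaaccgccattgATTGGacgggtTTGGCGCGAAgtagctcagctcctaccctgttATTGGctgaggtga
The Cdk1 stretch holds 2 CHR, 3 CCAAT and 2 E2F matches. Cdc20 has 1 CHR and 2 CCAAT matches, and Top2a has 4 and 6. No E2F core was found in either stretch. Mcm5 has 2 CCAAT and 3 E2F matches and Mcm6 has 2 and 4, both without a CHR.

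Wild type tissues differed widely in these genes, with small intestine highest for most members. Against salivary gland, 33 of 36 tested members were higher in small intestine (limma across all genes, Benjamini-Hochberg adjusted p under 0.05), where 30.2% of all 19236 genes tested were called higher, and 1 was lower, where 44.9% were. The median log2 difference was 2.13 over 15 replication members and 2.65 over 21 mitosis members, against -0.42 over all genes. Across other scalings and background corrections these ran from 1.18 to 2.13, from 1.30 to 2.80 and from -1.05 to 0.17, with 27 to 34 members and 17.5% to 36.6% of all genes called higher. Relative to all genes the medians stayed between 1.55 and 2.54 for replication and between 2.35 and 3.07 for mitosis. All 21 tested mitosis members were called higher. Of the 33, 19 stayed below that mark on all 4 wild type salivary gland arrays, so only a lower bound of their fold is known, and 17 had a bound above 1. Tissue and scan day cannot be told apart in these contrasts, since each tissue was scanned on a day of its own. In whole tissue, fewer dividing cells and less RNA per cell cannot be told apart.

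Top2a, which untangles replicated DNA, was at least 3.88-fold higher in small intestine than in salivary gland (adjusted p = 5.3e-07). Plk1, a mitotic kinase, was at least 5.61-fold higher and Mcm3 at least 3.59-fold higher. These bounds hold for the scaling of the main fit. Across the alternatives the fitted log2 difference went down to 1.72 for Top2a, 2.21 for Plk1 and 1.42 for Mcm3, each less than its bound. Mki67, the usual marker of dividing cells, had wild type levels of -1.68 ± 0.17 in small intestine (SD, n = 3), -2.66 ± 0.25 in macrophages (n = 3) and -4.53 ± 0.46 in salivary gland (n = 4, well above background on 2). The 3 tissues did not overlap for Mki67 in this scaling. Small intestine minus macrophages was 0.98 (SE 0.42, adjusted p = 0.0383), a call lost in 5 fits without 1 mouse (adjusted p 0.0565 to 0.0997). Salivary gland minus macrophages was -1.87 (SE 0.39, adjusted p = 3.3e-04). That call was lost with quantile normalization (-0.50, adjusted p = 0.251) and with another set of probes behind the percentile (-0.67, adjusted p = 0.137). The difference between small intestine and salivary gland was 2.85 (SE 0.39, adjusted p = 4.5e-06). For Pcna it was 2.08 (SE 0.29, adjusted p = 5.0e-06), with levels of -0.98 ± 0.25 against -3.06 ± 0.25, all 4 salivary arrays being above background. Mcm7 differed by 1.22 (SE 0.26), the lowest among members called higher that were detected in both tissues. Bub1 was called too but reached the mark on 0 of the 4 salivary gland arrays, and its fitted difference turned to -0.15 with another background correction.

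Tyms, thymidylate synthase, ran the other way. Its wild type level was -1.86 ± 0.61 in salivary gland (n = 4), -5.32 ± 0.09 in small intestine and -5.14 ± 0.44 in macrophages (n = 3 each). All 10 of these arrays were above background, and the salivary gland arrays did not overlap with either other tissue. The log2 difference between small intestine and salivary gland was -3.46 (SE 0.41, adjusted p = 9.6e-07). Small intestine and macrophages differed by -0.19 for Tyms (SE 0.44, adjusted p = 0.703).

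Against macrophages, small intestine was higher for 26 of 36 tested members and lower for 2, where 26.4% and 54.3% of all genes were called. Both sample types came from the same mice, but this fit took their arrays as independent. The median difference was 1.25 for replication and 1.84 for mitosis, against -1.06 over all genes. Across other scalings and background corrections these ran from 0.65 to 2.24, from 1.24 to 3.05 and from -1.18 to 0.38, with 21 to 31 members and 21.5% to 44.7% of all genes called higher. Relative to all genes the medians stayed between 1.83 and 2.32 for replication and between 2.42 and 2.91 for mitosis. Ccna2, cyclin A2, was at least 53.7-fold higher in small intestine (adjusted p = 2.8e-09), being detected on 0 of the 3 wild type macrophage arrays. Across the alternatives its fitted log2 difference went down to 4.80, less than this bound. Rrm2, the regulated subunit of ribonucleotide reductase, differed by 4.19 (SE 0.36, adjusted p = 1.0e-08) and Mcm5 by 4.10 (SE 0.39, adjusted p = 3.3e-08), and each was measured on 2 of 3 macrophage arrays. Mcm2 differed by 0.89 (SE 0.32, adjusted p = 0.0175) and Cdk1 by 1.26 (SE 0.46, adjusted p = 0.0178). Without the first wild type small intestine mouse the adjusted p was 0.0796 for Mcm2 and 0.0855 for Cdk1, without the third wild type macrophage mouse 0.0752 and 0.0886, and Cdk1 had 0.197 with the other background correction (normexp), so these calls were lost. The mean of the 3 Cdk1 probes turned its direction, to -2.66 here and to -0.96 against salivary gland. The 2 lower members were Cdc45, at -1.98 (SE 0.45, adjusted p = 6.2e-04), and Tpx2, a spindle assembly factor, at -1.30 (SE 0.48, adjusted p = 0.0218). Quantile normalization moved Cdc45 to 0.00 and ended the call of Tpx2, whose macrophage values rest on 2 arrays because every spot was an outlier on the third mouse of each genotype. Cyclin B1 (Ccnb1) did not pass the test here, at -0.72 (SE 0.48, adjusted p = 0.181), with levels of -3.82 ± 0.57 in small intestine and -3.11 ± 0.54 in macrophages.

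Salivary gland against macrophages had 7 members called higher and 18 lower, where 25.8% and 49.9% of all genes were. The medians of -0.76 (replication) and -0.79 (mitosis) were close to the -0.79 of all genes tested, and they came to 0.44 and 0.42 when another set of probes stood behind the percentile, where the median of all genes was 0.41. There 16 members were called higher and 9 lower, against 44.3% and 28.8% of all genes. Quantile normalization gave 15 and 8, against 40.2% and 35.6%. Among members called higher were Tyms (3.28, SE 0.41, adjusted p = 1.5e-06), Ccna2 (at least 4.92-fold) and Rrm2 (2.52, SE 0.34, adjusted p = 3.3e-06). Among those called lower, Tpx2 was at least 3.62-fold lower, Ccnb1 at least 2.92-fold and Foxm1, a transcription factor of mitotic genes, at least 2.80-fold. Across the alternatives the fitted log2 difference came to 2.07 for Ccna2 and -1.25 for Foxm1 at its smallest, each short of its bound. Mcm4, detected on 2 of 4 salivary gland and 3 of 3 macrophage arrays, differed by -2.86 (SE 0.32, adjusted p = 3.8e-07). Of the 7 called higher, Bub1, Bub1b and Cdc6 were detected on no wild type array of either tissue, and no fold is given for them.

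**Figure D1:**
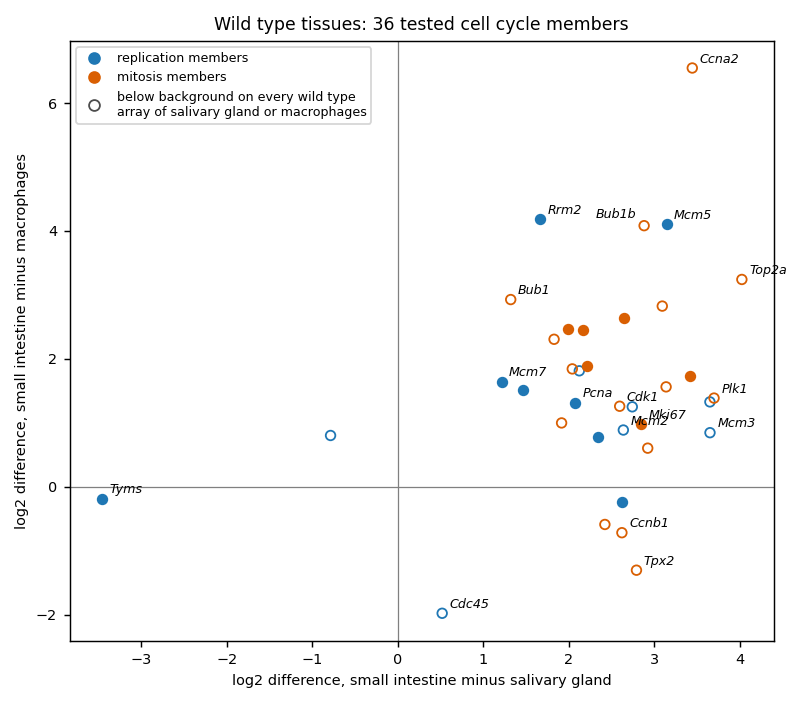
Log2 difference of each of 36 tested members in wild type mice, small intestine minus salivary gland (horizontal axis) against small intestine minus macrophages (vertical axis); blue points are replication and orange points mitosis members, and open points were below background on every wild type array of a comparison tissue, so their position is a fitted value against signal below background and no bound. Both axes share the small intestine arrays. Most points lie in the upper right, Tyms lies at -3.46 on the horizontal axis, and Cdc45 and Tpx2 lie below 0 on the vertical axis.

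By genotype, no member passed the adjusted threshold in any tissue. In salivary gland 0 of 14 tested members were called, where 278 of 9725 genes (2.86%) were. Of these 14, 1 had an unadjusted p under 0.05, against 22.3% of all genes. The log2 difference, labelled Irgm1-/- minus wild type, was above 0 for 13 of 14, against 56.8% of all genes. The median was 0.45 over 7 replication members and 0.63 over 7 mitosis members, against 0.05 over all genes. The other 24 members were too dim to be tested there. Rrm1 and Cenpe, a kinetochore motor, were measured on 3 and 2 of the 4 arrays labelled Irgm1-/- and on no wild type array. By the mean of all 4 arrays labelled Irgm1-/- they were at least 1.22-fold and 1.24-fold higher. The groups overlapped for both, and neither gene was tested, so no genotype difference is read from these folds.

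Mcm4, a helicase subunit, had the highest difference in salivary gland. Its levels were -2.24, -3.16, -3.71 and -3.55 on the arrays labelled Irgm1-/- and -4.10, -4.13, -3.79 and -4.18 on the wild type arrays. The groups did not overlap (11.2% of all genes were apart in this direction), though 3 of these 8 arrays were not well above background for Mcm4, the fourth labelled Irgm1-/- and the last 2 wild type ones. The difference for Mcm4 was 0.89 (SE 0.30, adjusted p = 0.143). Ccna2 read -1.64, -2.93, -3.94 and -3.55 against -4.67, -4.19, -3.66 and -2.79, and the difference was 0.81 (SE 0.54, adjusted p = 0.376). The groups overlapped, and the first mouse labelled Irgm1-/- was highest. Prc1, which bundles the central spindle, read -1.60, -2.76, -3.47 and -3.12 against -4.18, -3.98, -3.26 and -2.69 (difference 0.79, SE 0.45, adjusted p = 0.314). Tyms alone among the tested members was below 0, with -3.60, -2.78, -2.28 and -1.60 against -2.47, -2.05, -1.22 and -1.26 (difference -0.81, SE 0.44, adjusted p = 0.294). Here the first mouse was lowest.

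Mki67 in salivary gland was -2.43, -3.76, -4.63 and -4.40 on the arrays labelled Irgm1-/- and -4.73, -4.77, -4.41 and -3.79 on the wild type arrays. The difference was 0.62 (SE 0.46, adjusted p = 0.419). The first mouse was again far above the others of its group. Pcna read -2.20, -2.59, -2.98 and -2.82 against -3.08, -3.22, -2.70 and -2.79 (0.30, SE 0.19, adjusted p = 0.371). Rrm2 read -1.68, -2.89, -3.32 and -3.05 against -3.38, -3.48, -3.36 and -2.53 (0.45, SE 0.36, adjusted p = 0.454). In both the groups overlapped, with the first mouse labelled Irgm1-/- on top. For Mcm5 the difference was 0.78 (SE 0.35, adjusted p = 0.231), from -3.00, -3.81, -4.71 and -4.29 against -5.03, -4.98, -4.65 and -4.24, of which 4 arrays were well above background. Top2a, Ccnb1, Cdk1 and Mcm2 were not tested: they were well above background on 1, 1, 0 and 2 of the 4 arrays labelled Irgm1-/- and on no wild type array.

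A pair of slides carried the salivary gland arrays, and the members went opposite ways on them. On the first slide the medians were 1.01 for replication and 1.83 for mitosis (13 members tested), and on the second they were -0.14 and -0.52, with 0 of 9 tested members above 0. Medians over all genes within each slide are not given here, so whether other genes turned too is not shown. Relative to the wild type mean, the mitosis median of a single array was 1.93, 0.79, -0.11 and 0.09 in the 4 mice labelled Irgm1-/- and -0.67, -0.36, 0.27 and 0.70 in the 4 wild type mice. The replication median was 1.51, 0.66, -0.04 and 0.16 against -0.20, -0.25, 0.08 and 0.48. The groups overlap in both, and mice 1 and 2 of each genotype shared the first slide. Without the first mouse labelled Irgm1-/-, the medians were 0.19 and 0.21. That array was also the brightest of the 8, and its 8 salivary acinar markers had a median 1.53 below the wild type mean, against -0.15 to -0.67 in the other 3 mice labelled Irgm1-/-. Over the 8 acinar markers, 8 were below 0 and 2 were called, with summed signals of 91.5 to 328 times the percentile against 274 to 502 in wild type. Of 9 tested macrophage markers 9 were above 0 and 4 were called, with sums of 9.83 to 19.6 against 5.81 to 11.8. Over all genes of this tissue 56.8% were above 0 and 2.86% were called. Plac8, the only tested one of 3 monocyte markers, was higher by 3.36 (SE 0.30, adjusted p = 4.5e-04), and the 3 summed to 1.08 to 3.01 against 0.164 to 0.243. Of 5 tested T and NK cell markers 4 were above 0 and Gzma was called (sums over all 10 of 3.19 to 5.54 against 1.97 to 3.22). The part of these in the members' values was not tested. Genotype and age cannot be told apart in this tissue.

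**Figure D2:**
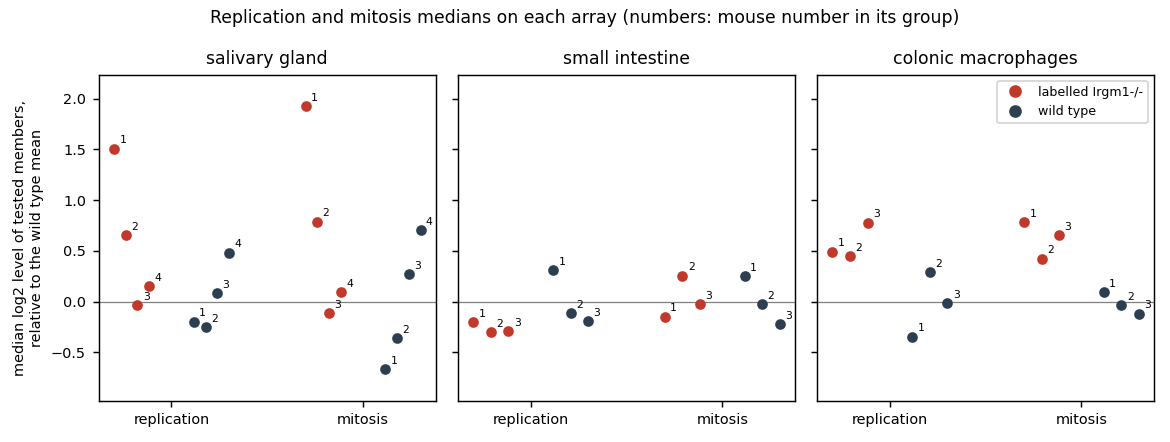
Median log2 level of the tested replication and mitosis members on each array, relative to the wild type mean of each gene, in salivary gland (7 and 7 members), small intestine (15 and 21) and colonic macrophages (14 and 17); red points are mice labelled Irgm1-/-, dark points wild type mice, and numbers are the mouse numbers of the labels. In salivary gland the mitosis median runs from -0.67 to 1.93 with mouse 1 labelled Irgm1-/- at the top, and in macrophages the red points lie above the dark ones for both classes.

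In small intestine 0 of 36 tested members were called, where 29 of 15397 genes (0.188%) were, and 0 had an unadjusted p under 0.05, against 7.11% of all genes. Replication and mitosis members lay differently: 14 of 15 replication members were below 0 with a median of -0.28, while 10 of 21 mitosis members were above 0 and 11 below with a median of 0.00. Over all genes 62.8% were below and 37.2% above 0, and the median was -0.09. Relative to that median, replication lay at -0.19 and mitosis at 0.09. Across other scalings and background corrections these ran from -0.19 to -0.05 and from 0.09 to 0.24, while the median of all genes itself ran from -0.20 to 0.02. The lowest adjusted p of any member was 0.663. Of the members, 5 replication genes (Mcm4, Mcm5, Gmnn, Rrm1, Tyms) had groups that did not overlap, lower on the arrays labelled Irgm1-/-, where 12.8% of all genes did.

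Cdc6 had the lowest difference, with -3.86, -5.07 and -4.08 on the arrays labelled Irgm1-/- against -3.49, -4.15 and -3.74 (difference -0.54, SE 0.35, adjusted p = 0.664). Ccne1 read 0.12, 0.25 and 0.05 against 1.01, 0.43 and 0.19 (-0.40, SE 0.23, adjusted p = 0.663). Pcna read 2.15, 1.94 and 2.0 against 2.91, 2.10 and 2.23 (-0.38, SE 0.24, adjusted p = 0.663). In each the highest value was that of the first wild type mouse. Mcm5 showed the same with 1.37, 1.38 and 1.25 against 2.21, 1.51 and 1.38 (-0.37, SE 0.24, adjusted p = 0.666), as did Mcm2 with 0.04, -0.32 and -0.35 against 0.72, -0.07 and -0.24 (-0.35, SE 0.28, adjusted p = 0.672). Rrm2 read 1.58, 1.32 and 1.33 against 2.13, 1.71 and 1.47 (-0.36, SE 0.20, adjusted p = 0.663), an overlap of 1 mouse on each side.

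Among mitosis members Ccnb1 read -0.17, 0.02 and 0.19 on the arrays labelled Irgm1-/- against -0.88, -0.21 and -0.20 in wild type, groups that did not overlap (5.07% of all genes were apart in this direction), with a difference of 0.45 (SE 0.23, adjusted p = 0.663). Cenpa, the centromeric histone, differed by 0.42 (SE 0.24, adjusted p = 0.663). Cdc45, a replication member and the only one of that class above 0, differed by 0.55 (SE 0.46, adjusted p = 0.677). For Cdc45 the first wild type mouse was the lowest, at -3.57 against -1.92 and -1.87, and the mice labelled Irgm1-/- read -1.96, -2.07 and -1.69. Mki67 read 1.64, 1.98 and 1.64 against 1.85, 1.78 and 1.50, and Top2a 0.55, 0.86 and 0.67 against 0.72, 0.70 and 0.67. Both overlapped, with differences of 0.04 (SE 0.17) for Mki67 and 0.00 (SE 0.14) for Top2a. Cdk1 also overlapped, with -0.50, -1.23 and -1.33 against -0.08, -1.12 and -1.40 (-0.15, SE 0.39, adjusted p = 0.870).

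Taken by mouse number, 13 of the 15 replication members, all but Cdc45 and Cdt1, were lower on the array labelled Irgm1-/- in 3 of 3 pairs of small intestine, where 27.5% of all genes were. Rrm2 differed by -0.55, -0.39 and -0.14 within the pairs. Of the 21 mitosis members 4 (Ccnb1, Cenpa, Kif11 and Nusap1) were higher in 3 of 3 pairs, where 11.7% of all genes were, 16 in 2 of 3 and Cdk1 in 1. With the pairs as a block 0 members were called by limma, where 0.00649% of all genes were. Then 3 had an unadjusted p under 0.05, against 7.62% of all genes: Cdc6, Cenpa and Ccnb1, each with an adjusted p of 0.582.

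Leaving out the first wild type mouse changed the picture of small intestine: 15 of 15 replication members were then below 0 (median -0.12) and 21 of 21 mitosis members above 0 (median 0.12), again with 0 called. Within the second slide, which lacks this mouse, the medians were -0.13 and 0.19, with 14 of 15 replication members below and 20 of 21 mitosis members above 0. The first slide held 1 mouse of each genotype and gave -0.55 and -0.40, against -0.19 over all genes. For the fit without the first wild type mouse and the fit of the second slide, the split of all genes is not given here. In the fit of all mice 62.8% of all genes were below 0. Fitted together with the other tissues, the medians came to -0.06 and 0.22. The percentile was 3868 to 4689.5 on arrays labelled Irgm1-/- and 2322 to 3204 on wild type arrays, so brightness ran with genotype. Summed enterocyte markers were 368 to 419.9 times the percentile against 448 to 557 (7 of 8 below 0), while 8 crypt markers had sums of 19.3 to 21.1 against 17.0 to 21.9 (4 above and 4 below 0). Of 11 tested macrophage markers 9 were above 0 and 7 had an unadjusted p under 0.05 (sums 30.4 to 41.2 against 23.5 to 29.1). Over all genes 37.2% were above 0 and 7.11% had such a p. Of 4 plasma cell markers 3 were above 0, each with an unadjusted p under 0.05 (sums 42.2 to 64.0 against 32.1 to 37.6), and of 10 T and NK cell markers 9 were below 0 (sums 10.8 to 18.2 against 11.4 to 29.5). None of these 5 lists had a call, and their part in the members' values was not tested. Genotype also ran with sex in the intestinal samples, and with sex as a term the medians were -0.29 and -0.02.

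In macrophages 30 of 31 tested members were above 0 on the arrays labelled Irgm1-/-, against 60.6% of all genes, and 0 were called, where 39 of 17022 genes (0.229%) were. The median was 0.60 over 14 replication members and 0.74 over 17 mitosis members, against 0.09 over all genes. Of the 31, 13 had an unadjusted p under 0.05 and lay above 0, against 4.32% of all genes, and 13 had groups that did not overlap in that direction, against 7.63%. The lowest adjusted p was 0.149. Ccne2, Cdc6, Top2a, Ccna2, Bub1, Bub1b and Aurkb were too dim to be tested. By the mean of its 3 arrays labelled Irgm1-/-, Ccna2 was at least 1.41-fold higher. It was measured on 2 of those arrays and on no wild type array.

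Cdk1, the kinase that starts mitosis, had the highest difference. It read -1.06, -2.16 and -2.24 on the arrays labelled Irgm1-/- and -3.09, -2.43 and -3.79 on the wild type arrays, which did not overlap (difference 1.28, SE 0.43, adjusted p = 0.243). Its 3 probes, all above background on the 6 arrays, gave 1.28, 1.06 and 0.02, so they disagree. Birc5 (survivin) read 2.21, 0.74 and 0.93 against 0.76, 0.21 and -0.82, with a difference of 1.24 (SE 0.50, adjusted p = 0.358), and its 3 probes gave 0.72 to 1.24. Ccnb1 read 1.20, -0.14 and 0.32 against 0.05, -0.90 and -1.23 (1.15, SE 0.44, adjusted p = 0.319). Birc5 and Ccnb1 overlapped between the groups by 1 wild type mouse, the first. Mki67 read 1.12, 0.24 and 0.15 against 0.18, -0.43 and -0.50 (0.75, SE 0.34, adjusted p = 0.445).

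Among replication members Gmnn had the highest difference and the lowest p, with -1.12, -1.68 and -1.88 against -2.40, -2.53 and -3.03 (difference 1.10, SE 0.30, adjusted p = 0.149). The groups did not overlap, and a second Gmnn probe, never well above background, gave -0.19. Mcm2 read -0.80, -1.20 and -0.81 against -1.56, -1.46 and -2.16 (0.79, SE 0.29, adjusted p = 0.284) and did not overlap either. Rrm2 read -2.30, -2.96 and -2.48 against -3.64, -2.93 and -3.62 (0.82, SE 0.31, adjusted p = 0.315). For Rrm2 the second wild type mouse lay within the other group. Mcm5 read -2.94, -3.07 and -2.30 against -3.90, -3.12 and -3.12, groups that did not overlap (0.61, SE 0.33, adjusted p = 0.562). Pcna overlapped, with 0.81, 0.57 and 0.33 against -0.55, 0.89 and 0.01 (0.45, SE 0.38, adjusted p = 0.763). At the low end were Ccne1 (0.20, SE 0.36), Cdc45 (0.14, SE 0.30) and Rrm1, the only member below 0 (-0.17, SE 0.30, adjusted p = 0.909).

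The sample titles number the mice within each group and name no pairs. In macrophages mice of the same number were of the same age, but mice 2 and 3 of both genotypes were all 6 weeks old. Mice 3 of both genotypes also had a slide of their own. Deviations of same-numbered mice went together, so the fit was repeated with these inferred pairs as a block. Then 4 of 31 members were called, each higher on the arrays labelled Irgm1-/-, where 7.73% of all genes were called and 2.16% were called higher. These were Gmnn (adjusted p = 0.0219), Ccnb1 (adjusted p = 0.0274), Cdc20 (adjusted p = 0.0327) and Birc5 (adjusted p = 0.0416). Gmnn differed by 1.29, 0.85 and 1.15 within the 3 pairs and Cdc20, which activates the anaphase-promoting complex, by 1.34, 0.67 and 1.10. Ccnb1 differed by 1.15, 0.76 and 1.55 and Birc5 by 1.45, 0.53 and 1.75. The size of each difference is that of the unpaired fit, and its error is smaller with the block. Over 30 members with a value in every pair, 18 were higher in 3 of 3 pairs, where 26.8% of all genes were, and 11 in 2 of 3.

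Leaving out single mice moved the macrophage medians between 0.35 and 0.79 for replication and between 0.53 and 0.89 for mitosis, with 0 calls each time. With normexp background correction they were 0.46 and 0.41, against 0.0060 over all genes. On the slide with 2 mice of each genotype the medians were 0.51 and 0.73. On the slide with 1 of each they were 0.78 and 0.75, with 28 of 30 members above 0, against a median of 0.06 over all genes. With sex as a term they were 0.78 and 0.62. Markers of other cells moved too. Of 5 tested crypt markers 5 were above 0 (median 1.02), and the 8 crypt markers summed to 3.68 to 4.64 times the percentile on the arrays labelled Irgm1-/- against 1.87 to 2.39 in wild type, while Axin2 was above background on no array. All 6 epithelial markers were above 0 (median 0.58, sums 87.1 to 186 against 69.4 to 160.5), as were 5 of 5 tested B cell and germinal centre markers (median 0.98, sums 9.47 to 17.6 against 6.21 to 12.6). Of 11 tested macrophage markers 9 were below 0 (median -1.23, sums 10.8 to 15.7 against 12.9 to 31.3). All 6 of 6 pancreatic acinar markers were below 0, 5 of them called, where 0.229% of all genes were (median -6.98, sums 7.52 to 8.05 against 149 to 670). The part of these in the members' values was not tested.

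**Figure D3:**
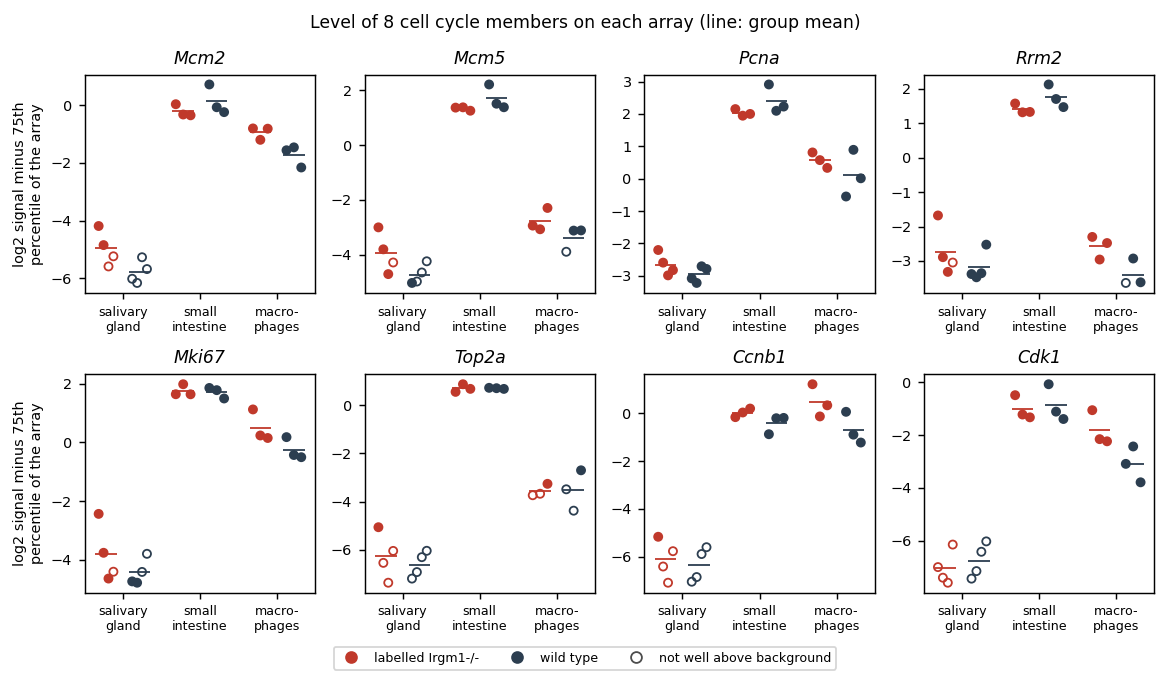
Level of 4 replication members (top row) and 4 mitosis members (bottom row) on each of the 20 arrays, as log2 signal minus the array's 75th percentile; red points are mice labelled Irgm1-/-, dark points wild type mice, open points were not well above background, and lines are group means (salivary gland n = 4 per genotype, the others n = 3). Each tissue was scaled on its own, so heights are to be read within a tissue. Cdk1 in macrophages shows red points from -2.24 to -1.06 above dark points from -3.79 to -2.43.

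The genotype differences were then set against each other across tissues, in a fit of all 20 arrays where 36 members were tested. No member passed in any of the 3 comparisons, where 0.187% of all genes did for salivary gland minus small intestine, 1.41% for small intestine minus macrophages and 4.92% for salivary gland minus macrophages. At an unadjusted p under 0.05 there were 1, 1 and 2 members, against 7.59%, 11.8% and 15.0% of all genes. Between salivary gland and small intestine the smallest p values were those of Mcm2 (0.93, SE 0.42, adjusted p = 0.642) and Mcm4 (0.88, SE 0.45, adjusted p = 0.662). Between small intestine and macrophages they were those of Gmnn (-1.09, SE 0.45, adjusted p = 0.304) and Mcm2 (-0.83, SE 0.45, adjusted p = 0.520). Between salivary gland and macrophages they were those of Gmnn (-1.35, SE 0.42, adjusted p = 0.0804) and Cdk1 (-1.49, SE 0.60, adjusted p = 0.224). Gmnn passed there when mouse numbers entered as a block (adjusted p = 0.0397), without the fourth salivary gland mouse labelled Irgm1-/- (0.0350) and without the first wild type one (0.0450), but neither Gmnn nor Cdk1 was detected on a single salivary gland array. That block joined same-numbered mice across tissues, and these differed in age. Mouse 1 labelled Irgm1-/- was 9 weeks old in salivary gland, 6 in small intestine and 8 in macrophages. The comparisons share arrays pairwise and are not independent. Small intestine and macrophage samples came from the same mice, but the fit took them as independent. With the animal as a random block, small intestine minus macrophages again had 0 members called.

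**Figure D4:**
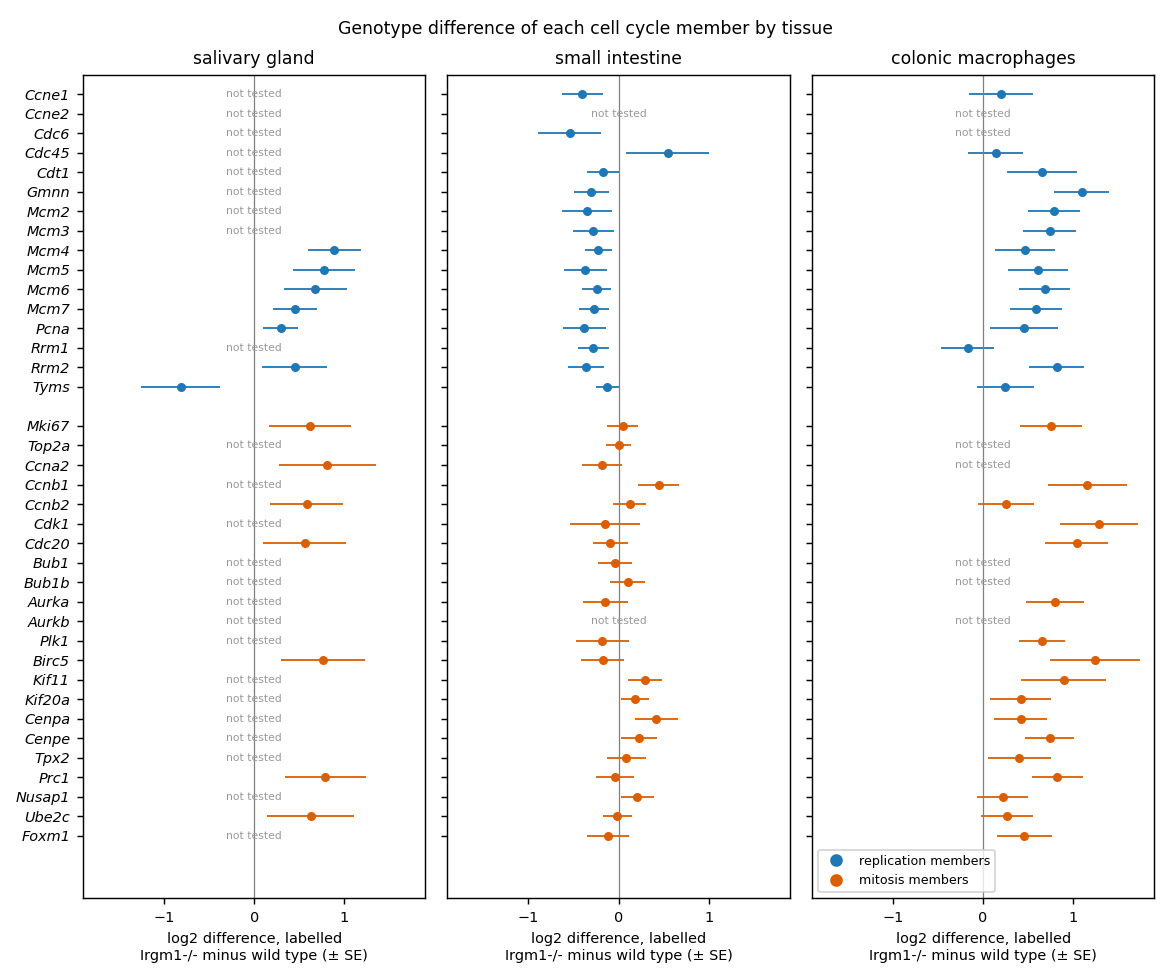
Log2 difference of each member between mice labelled Irgm1-/- and wild type mice, with its standard error, in salivary gland (14 tested), small intestine (36 tested) and colonic macrophages (31 tested); blue marks replication and orange mitosis members, and members too dim for a test are written as not tested. In macrophages 30 of 31 points lie to the right of 0, and in small intestine 14 of 15 replication points lie to the left.

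Other genes of the cycle were read from the same fits. Of 42 other mitosis genes, 7 were tested in salivary gland and 1 was called. This was Pttg1 (securin, which holds sister chromatids together until anaphase), lower by 1.73 on the log2 scale on the arrays labelled Irgm1-/- (SE 0.33, adjusted p = 0.0285), with levels of -3.48 ± 0.74 against -1.75 ± 0.20 (SD, n = 4 each). Pttg1 is a neighbour of Irgm1 in the genome, and the part of this in its difference was not tested. Its adjusted p ran from 4.6e-04 to 0.137 over the alternatives, and leaving out any of 6 of the 8 mice took it over the threshold. In small intestine 0 of 40 other mitosis genes were called (23 above 0, where 37.2% of all genes were, median 0.05), and 0 of 32 other genes of replication and S phase were (27 below 0, where 62.8% of all genes were, median -0.22). The widest differences were Cit (1.02, SE 0.60) and Ndc80 of the kinetochore (0.93, SE 0.42), and Mybl2 (-0.55, SE 0.26) and the checkpoint kinase Chek1 (-0.53, SE 0.31), each with an adjusted p of 0.663.

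In macrophages 24 of 25 tested genes of the other replication list were above 0 (median 0.40) and 29 of 30 of the other mitosis list (median 0.65), where 60.6% of all genes were above 0, with 0 called. At an unadjusted p under 0.05 there were 6 and 10, where 4.32% of all genes were higher at that p. Uhrf1, which maintains DNA methylation behind the fork, differed by 1.29 (SE 0.26, adjusted p = 0.0889), and the histone chaperone Asf1b by 1.31 (SE 0.28, adjusted p = 0.0949). Cdca3 differed by 1.58 (SE 0.46, adjusted p = 0.168) and Melk by 1.27 (SE 0.34, adjusted p = 0.137). Paired by mouse number, Uhrf1 (adjusted p = 0.0197), Asf1b (0.0213) and Cdca3 (0.0284) passed, where 2.16% of all genes were called higher. Melk passed in none of its alternative settings (lowest adjusted p by limma 0.0684). How many of all tested genes of both lists passed with the pairs is not given here, so no excess over all genes is read from these calls.

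In salivary gland 10 of 13 tested genes of the other replication list were above 0 (median 0.13), where 56.8% of all genes were, and 0 were called. Chek1 (-0.52, SE 0.22, adjusted p = 0.213) and Mcm10 (-0.46, SE 0.55, adjusted p = 0.616) had the widest differences. Cyclins, kinases and E2F factors of G1 had 0 calls in any tissue, with medians of 0.12 over 8 tested genes in salivary gland, -0.22 over 13 in small intestine and 0.11 over 11 in macrophages. Ccnd2 differed by 1.17 (SE 0.38, adjusted p = 0.138) and Ccnd1 by 0.94 (SE 0.38, adjusted p = 0.202) in salivary gland. In small intestine Ccnd2 differed by 0.50 (SE 0.32) and Myc by 0.45 (SE 0.25), and in macrophages Ccnd2 by 0.46 (SE 0.36). E2f2 in macrophages differed by 0.94 (SE 0.32, adjusted p = 0.249), with an adjusted p of 0.0467 under the block. Brakes on the cycle, such as the Cdk inhibitors, also had 0 calls, with medians of 0.33, -0.10 and 0.25 over 10, 19 and 17 genes. In salivary gland Btg1 differed by 0.58 (SE 0.18, adjusted p = 0.120) and Cdkn2c by 0.50 (SE 0.23, adjusted p = 0.237). In small intestine Cdkn2a differed by 0.52 (SE 0.61, adjusted p = 0.735) and the antiproliferative Tob1 by 0.41 (SE 0.37, adjusted p = 0.684). In macrophages Cdkn2b differed by 0.81 (SE 0.49, adjusted p = 0.629) and Tob1 by 0.75 (SE 0.32, adjusted p = 0.400).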

How the data were processed

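Total RNA of 20 samples was labelled with Cy5 and hybridized to single-colour Agilent arrays (design 026655, build mm9, read with Agilent Feature Extraction 11.5.1.1, per the file headers). The deposited intensity values are the scanner software's processed signals on a linear scale, not normalized between arrays. Its 0 or 1 flags marked spots well above background and outliers, and 0.434% of 43020 spots per array were left out as outliers. A deposited series table of intensity values, whose normalization no source used here states, served only as an alternative.

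Spots were averaged per probe on the log2 scale (39429 probes), and the 75th percentile of each array was subtracted, taken over all probes in small intestine and macrophages. In salivary gland and in the fit of 20 arrays, where under 50% of probes were above background on some array, it was taken over probes above background on every array. Gene names came from a RefSeq table (GRCm38.p6): 27508 probes were named by accession, 402 by synonym and 5347 by the file, and 6172 without a gene name were left out. Each gene was read from its brightest probe, and tested where the detected arrays numbered no fewer than the samples of the smaller group. limma 3.58.1 (R 4.3.3, with the data.table package in version 1.17.8; lmFit, eBayes, two-sided) was fitted over all genes of a tissue, or over the 20 arrays for differences between tissues, with Benjamini-Hochberg adjustment over all genes and a threshold of 0.05. Where a gene was above background on no array of 1 group, the fold is given as at least the brighter mean over the dimmer group's lowest measurable level. Such a bound holds for the scaling of the main fit alone. The number of arrays, 3 or 4 per group, limits the precision. On simulated arrays with 100 genes changed 2-fold, the fit recovered 71 in salivary gland, 31 in small intestine and 0 in macrophages, and 94, 78 and 45 of 100 at 4-fold.

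The members, gene lists and tests were chosen with earlier results of these data known. Named were Mki67, Top2a, Ccnb1, Cdk1, Pcna, Mcm2, Mcm5 and Rrm2, members past the threshold (up to 8 per tissue) or else the 3 highest and 3 lowest in each tissue, 2 per interaction, up to 6 per wild type contrast, and 2 to 4 of each other list. Promoters, probes and values shown beside these were chosen after their values were seen. Mouse numbers pair samples in small intestine and macrophages: the deviations of same-numbered mice from their group means had correlations of 0.20, 0.25 and 0.39 in the former and 0.50, 0.29 and 0.66 in the latter. In salivary gland the correlations were 0.20, -0.11, -0.52 and 0.43. Alternatives covered background correction, scaling, filter, probe choice, slide, mouse number, sex and each mouse left out. For small intestine against macrophages, another took the animal as a random block.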

Additional observations from a re-analysis of the deposited data

Results flagged for a closer look

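Rrm2 in wild type salivary gland had 1 mouse apart from the other 3. The fourth wild type mouse read -2.53, while the others lay between -3.48 and -3.36, so the gap took 87.5% of the range of the group. Over 32 groups of 4 checked in this way (14 tested members and 2 medians, in both genotypes) this was the only one so marked, and chance marks about 5% of groups.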

How the results depend on the processing

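No setting brought a member past the threshold by genotype in small intestine. Pairing by mouse number (replicate block) gave 1 call in salivary gland (Tyms, adjusted p = 0.0437 by limma, where 688 of 9725 genes passed) and 4 in macrophages. In the difference between those tissues the block gave 1 call (Gmnn), but there it joined mice of different ages under the same number. Same-numbered mice did not go together in salivary gland, where 1 of 8 arrays correlated best with its own number. Leaving out single mice gave 0 to 1 calls in that difference. With only genes detected on all 20 arrays, 8 members were left in the wild type contrasts and 8, 7 and 3 were called, where 75.1%, 80.5% and 79.0% of 6036 genes were; the drop follows from fewer genes tested. Directions turned for 16 named genes in 46 of 2174 settings, and 2077 kept direction and side of the threshold; the cause was not tested. With normexp these were, in salivary gland, Pcna (-0.11), Rrm2 (-0.064) and Cdkn2c (-0.081); in small intestine Pcna (0.54), Top2a (0.18) and Cdkn2a (-0.37); in macrophages Cdc45 (-0.020); and between wild type tissues Bub1 (-0.15) and Top2a (0.19). On the second salivary gland slide Ccna2 (-0.52), Prc1 (-0.32) and Pcna (-0.16) turned. In small intestine Top2a turned with quantile normalization (0.050), the other set of probes (0.11), the deposited table (0.047), all 20 arrays (0.22) and the second slide (0.083), Mki67 with median scaling (-0.061), the mean of probes (-0.024) and sex as a term (-0.071), Cdk1 with all 20 arrays (0.068) and Tob1 on the second slide (-0.065). Sex as a term turned Rrm1 (0.29) and Ccnd2 (-0.14) in macrophages. Between wild type tissues quantile normalization turned Cdc45 (0.0027), Ccnb1 (0.59) and Pcna (0.39), the other set of probes Ccnb1 (0.26), Top2a (0.42) and Pcna (0.44), and the mean of probes Cdk1 (-0.96 and -2.66) and Ccnb1 (0.67). Leaving out single mice moved Top2a from -0.085 to 0.073, Mki67 from -0.070 to 0.12, Cdk1 from -0.42 to 0.24, Cdc45 from -0.013 to 0.83 and Tob1 from -0.0052 to 0.64 in small intestine, and Cdc45 from -0.095 to 0.32 and Ccne1 from -0.14 to 0.46 in macrophages. Few arrays per group and weak signal in salivary gland, where 24 of 38 members were not tested, limit the genotype comparisons.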
